A study of Cricetulus griseus and Cricetulus griseus
Mus musculus and Mus musculus with 202 samples.

Results

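The genes described here are clade B serpins that lie together on mouse chromosome 13. The list named 10 genes: Serpinb9, Serpinb9b, Serpinb9c, Serpinb9d, Serpinb9e, Serpinb9f, Serpinb9g, Serpinb6a, Serpinb6b and Serpinb1a. Each was taken through the array features that the probe table pairs with that 1 symbol, and 9 of the 10 were measured, by 1 feature each, among 16504 genes in all. Serpinb9f had no feature in the table and is not analysed here. Serpinb9d was selected on its measured log2 ratios, as one of the genes that differ most between the hybrid lines, so its spread over the lines is given as a description, with no test.

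Serpins inhibit proteases by offering a reactive loop as bait, and the cleaved serpin traps the enzyme in a covalent complex. Clade B members lack a classical signal peptide and act mostly inside cells, where they shield the cell from proteases of cytotoxic granules, neutrophil granules and lysosomes. Mice carry several close relatives of human SERPINB9, SERPINB6 and SERPINB1 side by side on chromosome 13, while a separate group of clade B serpins lies on chromosome 1.

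RNA of 99 lines of the T31 radiation hybrid panel was compared with RNA of the hamster cell line A23 on 198 arrays. In such a panel irradiated mouse cells are fused with hamster cells, and every clone keeps its own assortment of mouse DNA fragments beside the hamster genome. Another 4 arrays set mouse whole brain against hamster whole brain and mouse whole liver against hamster whole liver, with 2 arrays for each organ. The labels name no strain, sex or age of the animals. Every line is 1 clone grown in serum-containing medium, and all lines share the A23 background. The 2 arrays of a line or organ are labelled as biological replicas, and the second exchanged the dyes of the first, so replicate 1 and replicate 2 also stand for the 2 dye orientations. No label names separate cultures or animals, so the spread between the 2 arrays of a line or organ may be technical. For the lines the p-values cover the spread between the 99 lines, with 1 value per line. For the organs they cover the spread between the 2 arrays of an organ.

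All values are log2 ratios. For the lines they give hybrid over A23, and for the organs they give mouse over hamster. A ratio of 1 on this scale is a 2-fold difference. Intensities are not part of the files, and precision is limited by how many arrays there are. The deposited table is cut off at a lowest value, which caps hybrid over A23 at 6.64 on replicate 1 arrays and holds it at -6.64 or above on replicate 2 arrays. A mouse probe can bind a hamster transcript poorly, and poor binding cannot be told apart from a lower hamster level. The clade B serpins of this cluster are close paralogues, and whether a probe also reads a paralogue was not tested. In a line, fewer cells that carry a fragment and less RNA per cell cannot be told apart.

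Tk1, the thymidine kinase whose mouse copy the hybrids need under selection, served as the check of the labels. It lay above 0 on 94 replicate 1 arrays and 98 replicate 2 arrays, and its mean over lines was 1.84. Arrays of the same orientation correlated weakly over all genes, with a median r of 0.230 in replicate 1 and 0.236 in replicate 2. The 2 arrays of a line had a median r of 0.168, a different measure, as gene means per orientation were first taken out. Over genes the panel means of the 2 orientations correlated at -0.226, so they did not repeat each other, which limits every panel mean. The replicate 1 array of line 23 stood apart: 35 of the 40 replicate 1 pairs with r below -0.3 involved it, and its median r with the others was -0.25. The lowest r of all pairs was -0.705. The labels state the dyes, so the direction was kept. The covariation calls, the panel calls of members and the likeness ranks are also given without line 23.

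The first question was how far each serpin varied from line to line. Most members sat near A23 in most lines and far above it in a minority, and Serpinb9d and Serpinb9g did so by the widest margins. Serpinb9c and Serpinb1a, at the other end, gave little agreement between the arrays of a line.

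**Figure D1:**
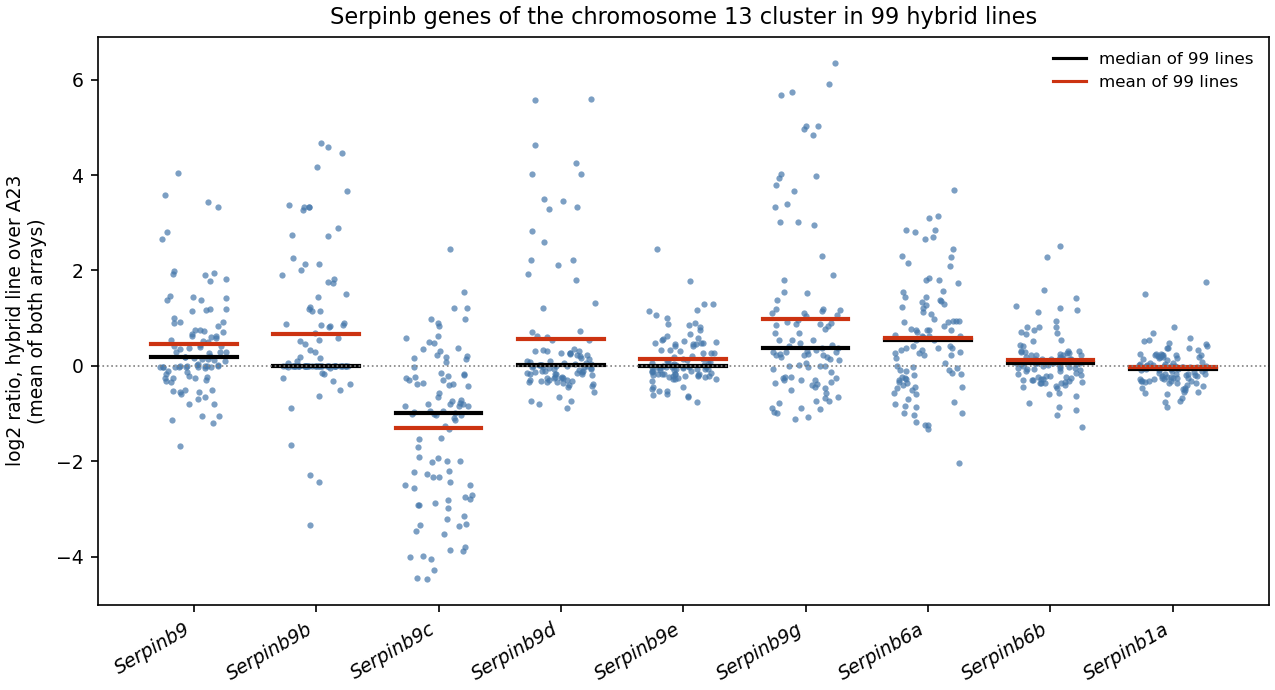
Mean log2 ratio of hybrid line over A23 (vertical axis) for each of the 9 measured serpins; each point is 1 of 99 lines, with the median in black and the mean in red. Serpinb9d has its median at 0.02 and lines up to 5.60, whereas Serpinb9c has its median at -0.99.

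Serpinb9d, a mouse paralogue of the granzyme B inhibitor Serpinb9, had line means from -0.89 in line 43 through a median of 0.02 to 5.60 in line 87. Its replicate 1 values ran from -1.47 to 5.93 with a median of 0.20, and its replicate 2 values from -1.92 to 5.86 with a median of -0.16. In 14 lines both arrays lay above 1. By line means 80 lines lay at or below 1, the highest of them at 0.73, and 19 lay above 1, the lowest of them at 1.21. The distribution is thus a large group near A23 with a long upper tail. The share of Serpinb9d variance that lies between lines, the intraclass correlation, was 0.764 (95% interval 0.668 to 0.835), against a median of 0.0414 over all genes. It was this spread that put the gene forward.

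Serpinb9g, another mouse relative of Serpinb9, had line means from -1.10 through a median of 0.37 to 6.36 in line 48. The last value is a lower bound, since 3 replicate 1 arrays of this gene, the one of line 48 among them, reached the cap. Both arrays lay above 1 in 20 lines, and the intraclass correlation was 0.691. Serpinb9e ran over a narrower range, from -0.76 through -0.01 to 2.44 in line 87, with 4 lines above 1 on both arrays and an intraclass correlation of 0.366. The highest line of Serpinb9e was thus also the highest of Serpinb9d.

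Serpinb9 itself, which inhibits granzyme B, had line means from -1.67 in line 23 through a median of 0.18 to 4.05 in line 56. Both arrays lay above 1 in 11 lines, and the intraclass correlation was 0.313. Serpinb9b, known in mouse as an inhibitor of granzyme M, had line means from -3.32 through a median of 0 to 4.67 in line 87, and both arrays lay above 1 in 12 lines. Exact zeros were frequent for these genes: 60.6% of the arrays gave exactly 0 for Serpinb9b and 22.7% for Serpinb9. The files do not say what an exact zero stands for, so the medians of these genes say little about the level. For Serpinb9b 5 replicate 1 arrays were at the cap and 1 replicate 2 array was at the lower limit.

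Serpinb9c, another mouse relative of Serpinb9, had the lowest median of the members. Its line means ran from -4.46 in line 86 through a median of -0.99 to 2.44 in line 1, and both arrays lay below -1 in 29 lines and above 1 in 1 line. Its arrays did not repeat each other from line to line, with an intraclass correlation of 0.073 (95% interval -0.125 to 0.266). The spread of single arrays was wide, from -5.72 to 3.84 in replicate 1 and from -4.74 to 1.82 in replicate 2.

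Serpinb6a, which inhibits cathepsin G among other proteases, ran from -2.03 through a median of 0.55 to 3.68 in line 48. Both arrays lay above 1 in 20 lines, and the intraclass correlation was 0.435. Its relative Serpinb6b, an inhibitor of granzyme A, ran from -1.27 through 0.06 to 2.51 in line 48. Only 5 lines had both Serpinb6b arrays above 1, yet the arrays of a line repeated well, with an intraclass correlation of 0.586. Line 48 was the highest line for both Serpinb6 genes and for Serpinb9g.

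Serpinb1a, which inhibits neutrophil elastase, cathepsin G and proteinase 3, varied least. Its line means ran from -0.87 through -0.06 to 1.76 in line 46, with 1 line above 1 on both arrays. The intraclass correlation was -0.149 (95% interval -0.335 to 0.049).

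The second question was which genes go with Serpinb9d from line to line. A handful did, and all of them were listed as clade B serpins of chromosome 13 or their neighbours: Serpinb9g, Serpinb9e, Serpinb6b, Serpinb9, Serpinb9b, the further paralogue Serpinb6c, the enoyl-CoA isomerase gene Eci2 and Pxdc1, which encodes a PX domain protein. Serpinb9c and Serpinb1a did not go with it. To keep the noise of 1 array out of the comparison, the Serpinb9d value came from the replicate 1 array of a line and the other gene's value from the replicate 2 array of that line.

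**Figure D2:**
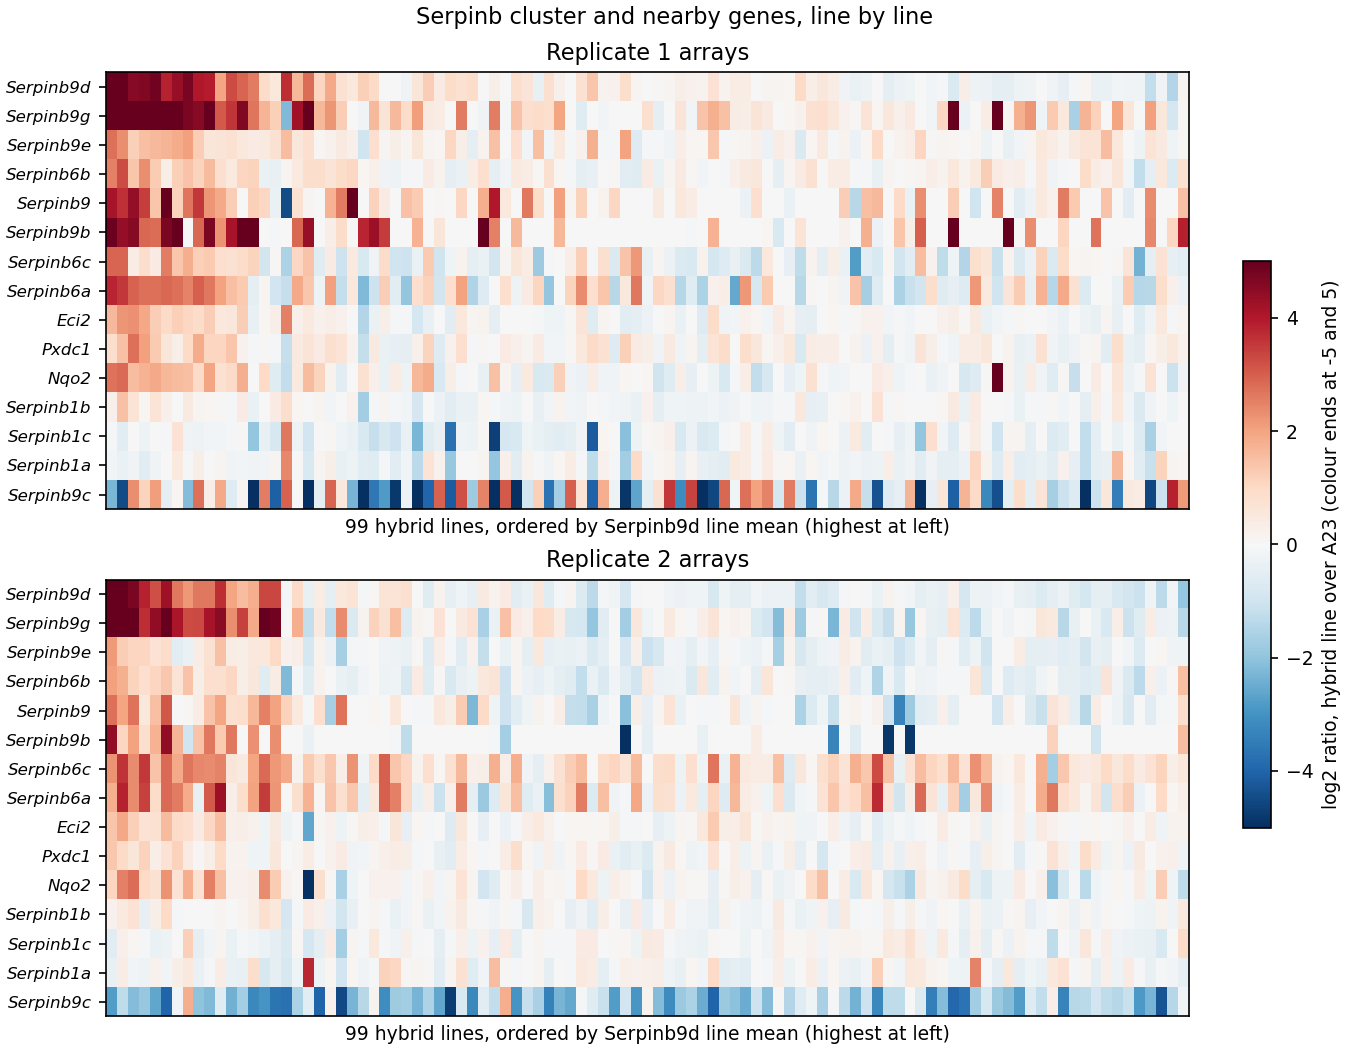
Log2 ratio over A23 on the replicate 1 arrays (top) and replicate 2 arrays (bottom), with genes down the page and the 99 lines across in the same order, from the highest Serpinb9d line mean at left to the lowest at right; colours end at -5 and 5. The lines at left are red for Serpinb9g and, more faintly, for most of the genes below it, while Serpinb1c, Serpinb1a and Serpinb9c show no such block.

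The lines at the top of the Serpinb9d range show the pattern array by array. Line 87 had Serpinb9d at 5.93 and 5.27 on its replicate 1 and replicate 2 arrays, Serpinb9g at 5.90 and 5.45, Serpinb9b at 4.91 and 4.43, Serpinb9 at 4.11 and 2.76, Serpinb6a at 3.80 and 1.81, Serpinb9e at 2.75 and 2.14 and Serpinb6b at 2.51 and 2.05. Serpinb9c was at -2.29 and -2.81 there and Serpinb1a at -0.15 and -0.35. Line 48 had Serpinb9d at 5.27 and 5.86, Serpinb9g at 6.64, the cap, and 6.07, Serpinb6a at 3.53 and 3.83, Serpinb6b at 3.25 and 1.78, Serpinb6c at 2.90 and 3.61 and Eci2 at 2.21 and 1.92. In both lines 7 of the 9 measured members were above 1 on both arrays.

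In other lines only some of the genes were high. Line 86 had Serpinb9d at 2.61 and 1.83, Serpinb9g at 2.69 and 1.90 and Serpinb9b at 6.64, the cap, and 2.28. The neighbours were near A23 in that line: Eci2 was at -0.36 and 0.23, Pxdc1 at -0.10 and -0.21 and Nqo2, a quinone oxidoreductase gene, at 0.00 and 0.32. In a few lines the arrays disagreed. Serpinb9d was at 3.69 and -0.10 in line 23, at 2.80 and -0.39 in line 49, at 0.92 and 3.32 in line 15 and at 0.53 and 3.34 in line 85. Serpinb9g disagreed the same way in 3 of these, with 5.03 and -1.21 in line 49, 1.71 and 5.07 in line 15 and 1.19 and 4.82 in line 85. In line 23 it was at -2.20 and 0.00.

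Regressing every gene on Serpinb9d with limma called 8 of 16503 genes (0.0485%), all with positive slopes, and 5 of them were among the 8 other measured members. A slope is the log2 change in the gene per log2 unit of Serpinb9d, with its SE over 99 lines. No gene had a negative slope that passed, and 1049 genes in either direction had an unadjusted p under 0.05.

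Serpinb9g had the steepest slope, 0.88 ± 0.09 (limma, adjusted p = 2.12e-13). Serpinb9b had 0.43 ± 0.08 (limma, adjusted p = 0.00205), but with exact zeros taken as missing it had 0.66 and did not pass (adjusted p = 0.354). Serpinb9 had 0.34 ± 0.06 (limma, adjusted p = 0.00103) and Serpinb9e had 0.21 ± 0.03 (adjusted p = 7.45e-05). Serpinb6b had 0.24 ± 0.04 with the same adjusted p of 7.45e-05 by limma. Serpinb9e and Serpinb6b had shallow slopes and ran over a small range of values. Serpinb6a had 0.30 ± 0.08 and did not pass (limma, adjusted p = 0.194). With the replicates exchanged its slope was 0.51 ± 0.08 and it passed (limma, adjusted p = 3.46e-05), as it did at 0.34 with exact zeros taken as missing (adjusted p = 0.0327). Serpinb9c had -0.01 ± 0.08 (limma, adjusted p = 0.996) and Serpinb1a 0.01 ± 0.04 (adjusted p = 0.992).

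**Figure D3:**
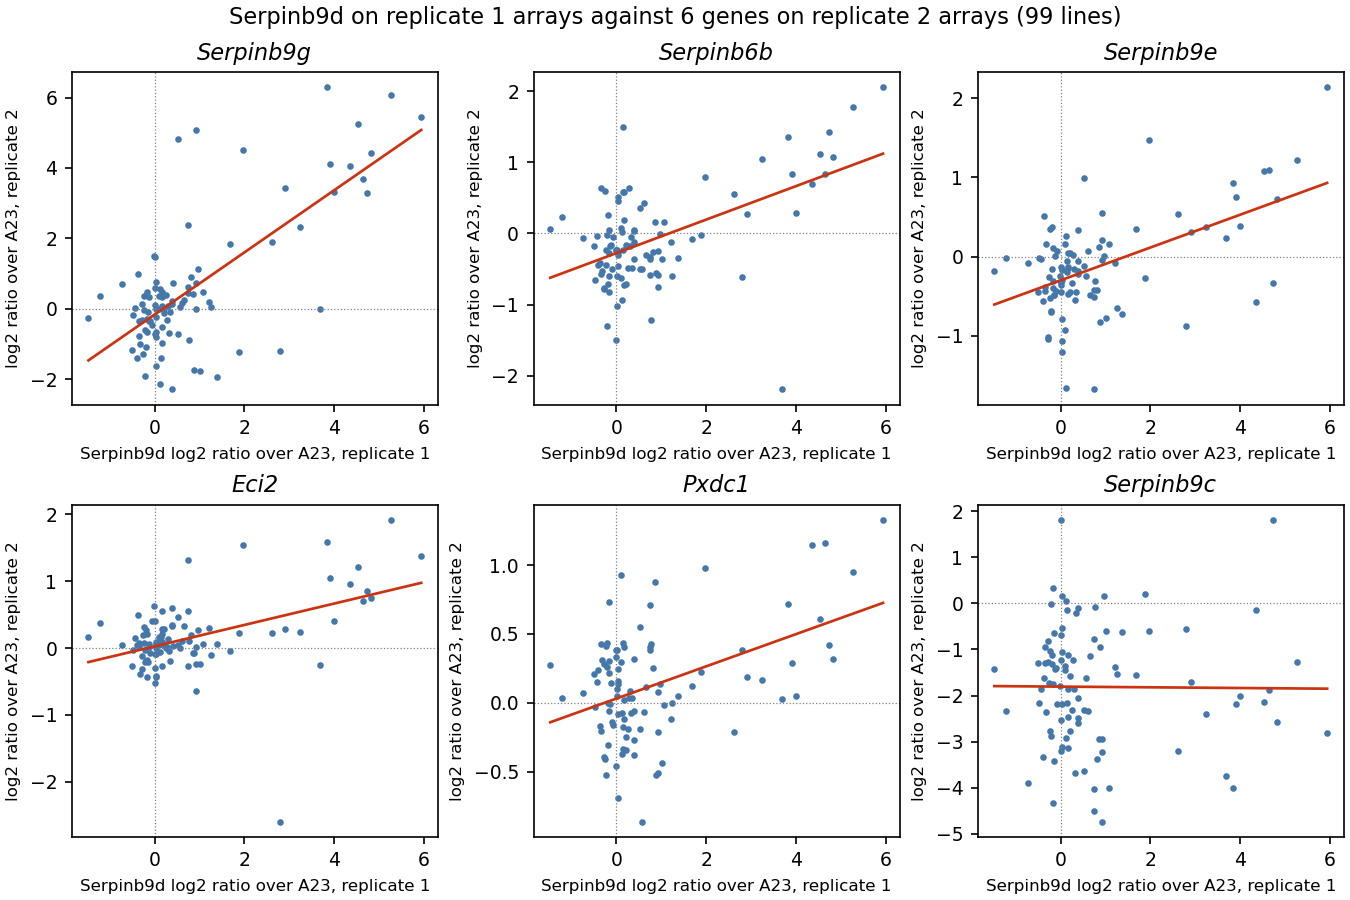
Serpinb9d on the replicate 1 array (horizontal axis, log2 ratio over A23) against 6 genes on the replicate 2 array of the same line (vertical axes, log2 ratio over A23, scales differ); each point is 1 of 99 lines and the red line is the least-squares fit. The fitted line of Serpinb9g has a slope of 0.88, and that of Serpinb9c a slope of -0.01.

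Outside the list, Serpinb6c, a close relative of Serpinb6a, had a slope of 0.31 ± 0.06 (limma, adjusted p = 8.79e-04). Among 24 measured genes from a list of 30 chromosome 13 neighbours, 2 passed: Eci2, which acts in the oxidation of unsaturated fatty acids, with 0.16 ± 0.03 (limma, adjusted p = 0.00395), and Pxdc1 with 0.12 ± 0.02 (adjusted p = 0.0102). Nqo2 had 0.27 ± 0.06 and just missed (limma, adjusted p = 0.0528), but without line 23 it had 0.28 and passed (adjusted p = 0.0429). The other chromosome 13 serpins measured, Serpinb1b and Serpinb1c, had 0.04 ± 0.02 and -0.02 ± 0.03 and did not pass (limma, adjusted p = 0.839 and 0.967).

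Of the 8 measured clade B serpins of chromosome 1, 0 passed in limma, and 0 had an unadjusted p under 0.05. Of 22 measured proteases that clade B serpins inhibit or that share their granules, such as granzymes, cathepsins and caspases, 0 passed, and 2 had an unadjusted p under 0.05. The markers of cytotoxic lymphocytes, neutrophils, mast cells, macrophages and fibroblasts also gave 0 calls by limma, out of 8, 8, 5, 6 and 7 measured genes, with 1, 0, 0, 1 and 0 of them at an unadjusted p under 0.05. Tk1 had a slope of -0.08 ± 0.07 (adjusted p = 0.932).

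With the replicates exchanged, so that Serpinb9d came from replicate 2 and the response from replicate 1, limma called 12 genes (0.0727%), all positive. The 8 genes above were all among them. The others were Serpinb6a, Nqo2 with 0.35 ± 0.06 (adjusted p = 6.90e-04), Serpinb1b with 0.11 ± 0.02 (adjusted p = 0.0201) and the thioesterase gene Acot13 with a slope of 0.33. Without line 23, 9 genes were called, the same 8 and Nqo2, and 12 with the replicates exchanged.

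The calls rest on the minority of lines with high Serpinb9d. Without lines 87 and 48, the farthest from the median, Serpinb9g alone passed, and the slopes of the other members called were 0.30 for Serpinb9, 0.38 for Serpinb9b, 0.16 for Serpinb9e and 0.19 for Serpinb6b (limma, adjusted p from 0.0871 to 0.109). The rank of Serpinb9d as predictor also left Serpinb9g alone. Leaving out 1 line at a time gave from 6 calls, without line 48, to 14, without line 41. Serpinb9b lost its call without line 87 (slope 0.37, adjusted p = 0.0600), Eci2 without line 48 (0.14, adjusted p = 0.0790) and Pxdc1 without line 48, 80 or 87 (0.10 to 0.11, adjusted p from 0.0668 to 0.171). Within the 80 lines at or below 1 and within the 19 lines above 1, limma called 0 genes, with 1041 and 507 genes at an unadjusted p under 0.05. Dividing the lines by Serpinb9d leaves fewer lines and a shorter range of it, so these counts cannot show where the calls rest.

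A second view ranked all genes by likeness to Serpinb9d, without a test. Likeness is the lower of 2 Pearson correlations over the 99 lines, Serpinb9d in replicate 1 with the gene in replicate 2 and the reverse. The points share the A23 comparison and, within each orientation, the dyes. The first 10 of 16503 genes were all clade B serpins or neighbours on chromosome 13.

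**Figure D4:**
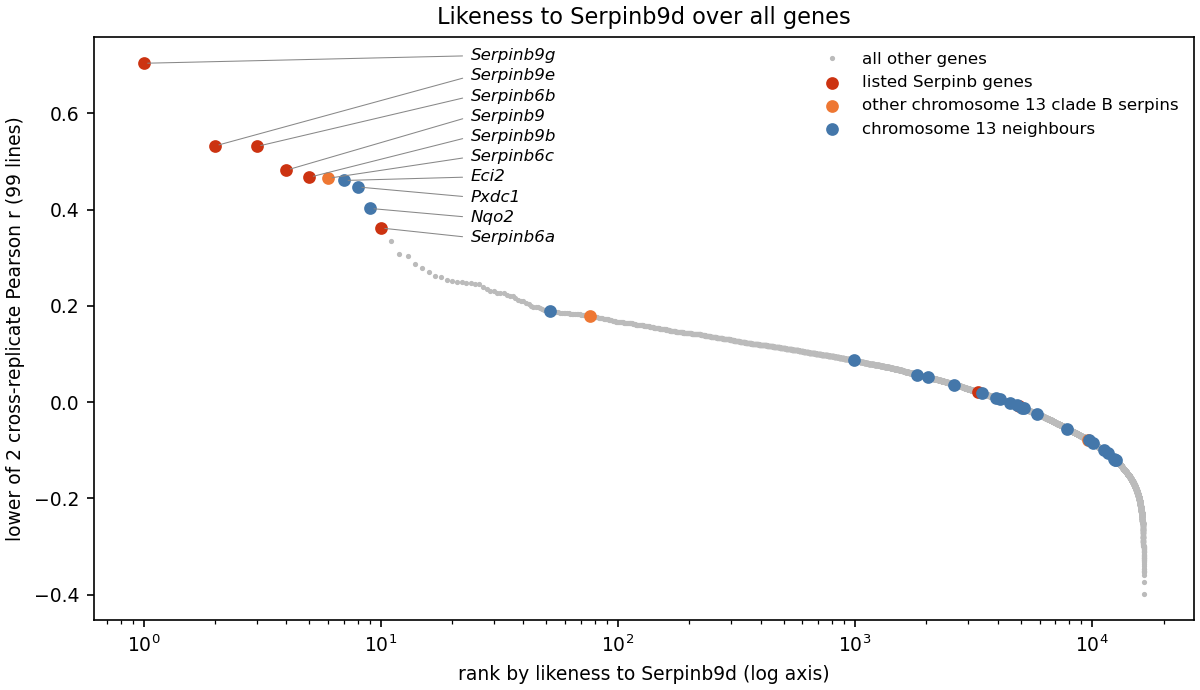
Likeness to Serpinb9d (vertical axis, lower of 2 cross-replicate Pearson r over 99 lines) against rank among 16503 genes (horizontal log axis); red marks listed Serpinb genes, orange other chromosome 13 clade B serpins, blue chromosome 13 neighbours and grey all other genes. The 10 labelled genes lie between 0.704 and 0.362, and the next gene lies at 0.334.

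Serpinb9g came first with 0.704, followed by Serpinb9e with 0.532, Serpinb6b with 0.531, Serpinb9 with 0.482 and Serpinb9b with 0.467. Serpinb6c had 0.465, Eci2 0.461, Pxdc1 0.447 and Nqo2 0.403, and Serpinb6a was the tenth with 0.362. The first 10 stayed the same genes without line 23, with Serpinb6b at rank 2 (0.601) and Eci2 at rank 4 (0.486). The other genes that the naming rule gave were Slc7a5, a large neutral amino acid transporter, with 0.334, Tsen15, a subunit of the tRNA splicing endonuclease, with 0.308, Sarnp, which takes part in mRNA export, with 0.304 and Serinc1 with 0.286. Over all genes the median was -0.0608 and the 99th percentile 0.149. Serpinb1a had 0.0212 and Serpinb9c -0.00899, well within the bulk.

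Rank correlations were lower, 0.438 for Serpinb9g, 0.246 for Serpinb9e, 0.230 for Serpinb6b and 0.334 for Serpinb9. By this measure 3 of these genes were no longer among the first 10: Serpinb6a stood at rank 20 with 0.192, Serpinb6c at rank 36 with 0.175 and Pxdc1 at rank 133 with 0.136. Without lines 87 and 48 the lower Pearson r was 0.654 for Serpinb9g, 0.418 for Serpinb9e and 0.421 for Serpinb6b, and Serinc1 moved to rank 6 and Serpinb6a to rank 11. In the 80 lines at or below 1 the lower r was 0.0123 for Serpinb9g, -0.0388 for Serpinb6b and -0.180 for Pxdc1, and in the 19 lines above 1 it was 0.228, 0.508 and 0.503 in the same order. Dividing the lines by Serpinb9d shortens its range, which itself lowers r within each set of lines.

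Taking each member in turn as the starting gene gave a connected group. Serpinb9d was the gene most like Serpinb9, Serpinb9b, Serpinb9e and Serpinb9g. For Serpinb6b it was Serpinb9g with 0.535, just ahead of Serpinb9d. Serpinb6a was most like Serpinb6c with 0.470, ahead of Serpinb9g with 0.378. The neighbours Eci2, Pxdc1 and Nqo2 also had Serpinb9d in first place. For Serpinb9c and Serpinb1a the first gene was none of these, with likeness of 0.274 and 0.282.

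Counting lines uses the same values as the correlations and shows in which lines the high values coincided. All 14 lines with Serpinb9d above 1 on both arrays also had Serpinb9g above 1 on both, and they made up 70.0% of the 20 lines of Serpinb9g. Serpinb9b shared 11 lines, 78.6% of the Serpinb9d lines and 91.7% of its own. Serpinb9 shared 8, 57.1% of the Serpinb9d lines and 72.7% of its own. Serpinb6a shared 9, 64.3% of the Serpinb9d lines but 45.0% of its own 20. Each line of Serpinb9e, Serpinb6b, Nqo2 and Eci2 by this rule, 4, 5, 6 and 4 in number, was also a Serpinb9d line. Pxdc1 and Exoc2 shared the only line they had, and Serpinb6c shared 8 of its 13. Other neighbours shared fewer: Nrn1 3 of 4, Wrnip1 2 of 5, Eci3 2 of 6 and Tubb2a 2 of 12. Foxf2 and Tubb2b shared 0 of 4 each and Prpf4b 0 of 3. The Serpinb9d lines were 14 of all 99 lines.

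The third question was whether the hybrids as a panel lay above or below A23. Serpinb9g, Serpinb9b, Serpinb6a and Serpinb9 were higher in the hybrids, and Serpinb9c was lower. Serpinb9e, Serpinb6b and Serpinb1a were not called. A call needed a limma adjusted p under 0.05 and a mean of at least 0.2 in size, with 1 value per line. Of the 8 members other than Serpinb9d 4 were higher, where 19.5% of all genes were, and 1 was lower, where 11.4% of all genes were. Their median was 0.30, against 0.01 over all genes.

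Serpinb9g averaged 0.99 ± 0.18 (SE, n = 99 lines; limma, adjusted p = 1.66e-06), which is 1.98-fold A23, and was above 0 in 68 lines. Replicate 1 alone gave a mean of 1.43 and replicate 2 alone 0.55. Serpinb9b averaged 0.67 ± 0.14 (limma, adjusted p = 3.98e-05) but rested on 1 orientation, with 1.28 in replicate 1 and 0.05 in replicate 2, where it did not pass alone (adjusted p = 0.746). Serpinb9 averaged 0.46 ± 0.10 (limma, adjusted p = 1.07e-04), with 0.83 in replicate 1 and 0.08 in replicate 2, and did not pass in replicate 2 alone (adjusted p = 0.531). Serpinb6a averaged 0.60 ± 0.11 (limma, adjusted p = 6.04e-06), with 0.38 and 0.81, and was above 0 in 64 lines.

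Serpinb9c averaged -1.30 ± 0.15 (limma, adjusted p = 8.36e-12), 0.405 of A23, and was above 0 in 21 lines. It was lower in each orientation, at -0.80 in replicate 1 and -1.81 in replicate 2. Serpinb9e averaged 0.15 ± 0.05 (limma, adjusted p = 0.00971), below the size limit, with opposite signs of 0.44 in replicate 1 and -0.13 in replicate 2. Serpinb6b averaged 0.12 ± 0.06 (limma, adjusted p = 0.0800) and Serpinb1a -0.03 ± 0.04 (adjusted p = 0.559). Serpinb9d, chosen for its upper tail, averaged 0.56 ± 0.14, with 0.81 in replicate 1 and 0.31 in replicate 2.

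In 28 lines, called matched lines here, the first array correlated better with its own second array than with any other second array. In the remaining lines the second array of another line correlated better. The matched lines gave Serpinb9b a mean of 0.81, which did not pass (limma, adjusted p = 0.0530). The other calls were also made in the matched lines and without line 23.

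Around the cluster, Serpinb6c averaged 0.55 ± 0.08 and was higher (limma, adjusted p = 3.44e-08), but at 1.05 in replicate 2 and 0.04 in replicate 1. Serpinb1c averaged -0.23 ± 0.05 and was lower (limma, adjusted p = 4.83e-05), although it was at -0.04 both in replicate 2 alone (adjusted p = 0.390) and in the matched lines (adjusted p = 0.494). Of the 24 measured neighbours 10 were higher and 3 lower, with a median of 0.18. Of the 10 higher, 4 had a mean below 0 in replicate 1 alone: Bphl at -0.29, Eci3 at -0.22, Fars2 at -0.23 and Foxf2 at -0.13. The called neighbours included the beta tubulin gene Tubb2a at 0.59 ± 0.08, the exocyst gene Exoc2 at 0.50 ± 0.11, the splicing kinase gene Prpf4b at -0.61 ± 0.10 and the forkhead factor gene Foxc1 at -0.46 ± 0.08. Exoc2 was at -0.18 in replicate 2 alone, and Tubb2a was at 0.10 in replicate 1 alone, which did not pass (limma, adjusted p = 0.424), against 1.09 in replicate 2. Of 8 chromosome 1 clade B serpins 1 was higher, Serpinb2 at 0.26 ± 0.10, and 1 lower, Serpinb11 at -0.21 ± 0.03. Serpinb2 was at -0.17 in replicate 2 alone. Of 22 proteases 3 were higher and 2 lower, with Gzma at 0.49 ± 0.10, Elane at -0.44 ± 0.06, Gzmk at -0.21 ± 0.05, Ctsg at 0.25 ± 0.05 and Ctsb at 0.22 ± 0.06. Elane was at 0.21 in replicate 2 alone and Ctsb at -0.33 in replicate 1 alone. Gzma did not pass in replicate 2 alone, at 0.24 (limma, adjusted p = 0.0721), or in the matched lines, at 0.05 (adjusted p = 0.824).

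The last question was how the mouse and hamster signals compare in whole organs. In the fit without a replicate block, Serpinb1a was higher on the mouse side in brain, and no other member was called in brain or in liver. With the replicate number as a block, Serpinb9b and Serpinb9c were called higher and Serpinb6a lower in liver, as given below. Of the lines' leading genes, neither of them called, Serpinb9d was at -0.59 and -0.82 in brain and at -0.28 and -0.35 in liver. Serpinb9g was at -0.67 and -0.007 in brain and at -0.007 and -0.32 in liver, with an array near 0 in each organ. Those 2 arrays are the middle pair of the feature, which the centring of the deposited tissue ratios places around 0. Their closeness to 0 is thus partly built in. Each organ has 2 arrays and the fit 2 residual degrees of freedom.

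**Figure D5:**
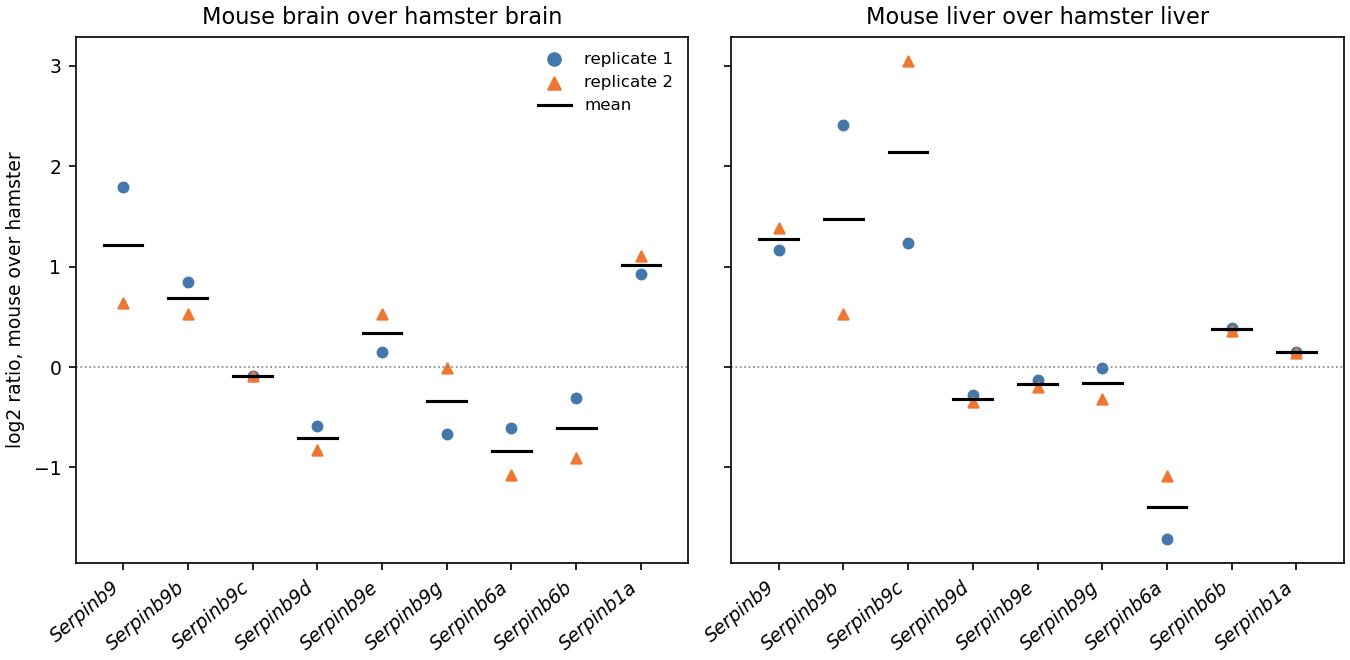
Log2 ratio of mouse over hamster (vertical axis) in brain (left) and liver (right) for the 9 measured serpins, with the replicate 1 array as a circle, the replicate 2 array as a triangle and their mean as a bar. Serpinb1a is near 1 on both brain arrays, and Serpinb9c lies at 1.24 and 3.05 on the liver arrays but near 0 in brain.

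In brain, Serpinb1a was at 0.92 and 1.11 on its replicate 1 and replicate 2 arrays, a mean of 1.02 ± 0.12 (limma SE from all 4 arrays, adjusted p = 0.0309). Its liver arrays lay at 0.15 in replicate 1 and 0.14 in replicate 2. The deposited tissue ratios were centred per feature, which partly builds in the agreement of these liver arrays. The SE and adjusted p draw on this agreement and may be too small. Serpinb1a was 1 of 9 members called, where 10.1% of all genes were higher and 5.91% lower. Serpinb9 was at 1.80 and 0.64 (mean 1.22, limma adjusted p = 0.0856), Serpinb9d at -0.59 and -0.82 (mean -0.71, adjusted p = 0.0508) and Serpinb6a at -0.61 and -1.07 (mean -0.84, adjusted p = 0.0873). The means of these 3 genes did not pass. With values at the floor taken as missing over all genes Serpinb9d passed (adjusted p = 0.0491). Serpinb1b was higher in mouse brain, at 1.00 and 1.32 (mean 1.16 ± 0.14, limma adjusted p = 0.0320). Its liver arrays were both at 0.004, so the limit from the centring applies to it as well. Leaving out either brain array leaves a single array for brain, too little to decide whether the Serpinb1a call holds.

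In liver, 0 of 9 members were called by limma, where 4.61% of all genes were called, and 3 had an unadjusted p under 0.05, where 42.5% of all genes did. Serpinb9c was at 1.24 and 3.05 (mean 2.14 ± 0.51, limma adjusted p = 0.0866), Serpinb9b at 2.41 and 0.53 (mean 1.47, adjusted p = 0.133), Serpinb9 at 1.17 and 1.39 (mean 1.28, adjusted p = 0.0943) and Serpinb6a at -1.71 and -1.08 (mean -1.40, adjusted p = 0.0682). With the replicate number as a block, which takes out an offset shared by arrays of 1 dye orientation, Serpinb9c and Serpinb9b were higher (limma, adjusted p = 0.0268 and 0.0466) and Serpinb6a lower (adjusted p = 0.0350), where 16.3% of all genes were higher and 9.22% lower.

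For brain minus liver, 0 of 9 members were called by limma, where 6.07% of all genes were, and 3 had an unadjusted p under 0.05, where 32.5% did. Serpinb9c differed by -2.23 ± 0.72 (adjusted p = 0.148), Serpinb6b by -0.99 ± 0.28 (adjusted p = 0.120) and Serpinb1a by 0.87 ± 0.17 (adjusted p = 0.0719).

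Some genes listed around the serpins were called. Of the 24 neighbours, Exoc2 was higher in mouse brain at 3.08 ± 0.29 and the forkhead factor gene Foxq1 lower at -0.68 ± 0.12. In mouse liver Nrn1, which encodes neuritin, was higher at 4.30 ± 0.36 and Pxdc1 at 3.03 ± 0.17. Eci2 was at 5.16 and 1.70 on the liver arrays and Nqo2 at 3.07 and 1.62, and neither passed (limma, adjusted p = 0.111 and 0.0714), whereas with the replicate block both did (adjusted p = 0.00915 and 0.0135). Of the chromosome 1 serpins Serpinb3d was lower in mouse brain at -2.15 ± 0.12 and Serpinb12 higher in mouse liver at 1.29 ± 0.14. Of the proteases Ctss, the cathepsin S gene, was higher in mouse brain at 3.04 ± 0.11, Ctsb was higher at 0.94 ± 0.11 and Ctsg lower at -0.79 ± 0.10, while F2 at 2.48 ± 0.23 and Casp4 at 1.28 ± 0.11 were higher in mouse liver. The limma adjusted p of the called values lay between 0.0172 and 0.0493. For each called gene the arrays of the other organ are the middle pair that the centring per feature ties together. The limma SE and adjusted p draw on the agreement of that pair and may be too small here as well. With the replicate block the brain calls of Foxq1 and Ctsg did not pass (limma, adjusted p = 0.0735 and 0.0536).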

How the data were processed

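Per the labels, the authors deposited each array as log10 ratios, Cy5 over Cy3. In the sources used here it is not given how the arrays were scanned and normalised. There were 20868 features on 202 arrays in the deposited table, with 0 missing values. In 99.3% of the features the 4 tissue ratios had a median of 1 (tolerance 1e-06), so these arrays had been centred per feature. That offset cancels in the mean of both orientations but not in the spread between the arrays of an organ. The centring also ties the 4 arrays together, so they are not independent. For genes where it makes the arrays of an organ agree, the limma SE and adjusted p may be too small.

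Each log10 ratio was given the sign of its dye orientation and turned to log2. Features with 1 gene symbol in the supplied probe table were averaged per gene. Limma 3.58.1 in R 4.3.3 was fitted over all genes, with Benjamini-Hochberg adjustment. The panel mean used 1 value per line, and the slope on Serpinb9d used the replicate 2 arrays against Serpinb9d of replicate 1. The tissue fit used the 4 tissue arrays. The fits were tested first on simulated data with independent normal noise, which lacked the centring, the caps and the exact zeros of these data. Correlations and intervals came from Python 3.11.15. Alternatives were array scaling, zeros or floor values as missing, single probes, single replicates, matched lines, the replicate block, ranks, removed components and lines left out.

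Replicate numbers mark dye orientation per the labels. Deviations of replicate 1 minus replicate 2 correlated between lines with a median r of 0.306, over 0.1 in 85.6% of line pairs, and at 0.439 between brain and liver.

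Named genes were all members, Tk1, the 8 other genes most like Serpinb9d, and called genes of the lists. The members and lists were chosen with earlier results of these data known. The neighbour list was written from background knowledge. Gene positions and sequences were not analysed here.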

Additional observations from a re-analysis of the deposited data

Results flagged for a closer look

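By limma's test of the difference (n = 2 arrays per organ), the species ratio differed between brain and liver for 7 genes of the lists. None of them was a measured member of the cluster. They were 2 of 24 neighbours, 1 of 8 chromosome 1 serpins, 1 of 22 proteases, and 1 each of 8 neutrophil, 5 mast cell and 7 fibroblast markers. In the other lists 0 genes were called, and of all genes 6.07% were called. Nrn1 differed by -4.66 ± 0.52 in brain minus liver (adjusted p = 0.0453), with -0.32 and -0.41 on the brain arrays, against 4.93 and 3.66 on the liver arrays. Pxdc1 differed by -3.86 ± 0.24 (limma, adjusted p = 0.0328), with -0.61 and -1.06 in brain, against 3.12 and 2.94 in liver. Serpinb3d differed by -2.72 ± 0.17 (limma, adjusted p = 0.0334), with -2.11 and -2.19 in brain, against 0.68 and 0.46 in liver. Ctss differed by 3.34 ± 0.15 (limma, adjusted p = 0.0324). Of the marker genes, Camp of neutrophils differed by -1.77 ± 0.19 (limma, adjusted p = 0.0452), Tpsb2 of mast cells by -2.70 ± 0.15 (adjusted p = 0.0328) and Vim of fibroblasts by 2.01 ± 0.15 (adjusted p = 0.0352). Camp was at -1.67 and -1.37 in brain, against 0.27 and 0.23 in liver. Tpsb2 was at -0.05 on both brain arrays, against 2.66 and 2.65 in liver. Vim was at 2.15 and 2.20 in brain, against 0.18 and 0.16 in liver. The centring per feature makes the 2 middle ratios of a feature average 1. For each of these 7 genes both arrays of 1 organ are that pair, so their agreement is partly built in. That organ is brain for Nrn1, Pxdc1 and Tpsb2 and liver for Serpinb3d, Ctss, Camp and Vim. The limma SE and adjusted p draw on this agreement and may be too small. For Nrn1, Pxdc1, Serpinb3d and Camp the signs in the organs are opposite, and whether hamster sequence or expression sets these ratios cannot be told apart.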

How the results depend on the processing

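The panel count of 5111 called genes was 9495 without the size limit and ran from 7968 to 10174 with either replicate left out. Leaving 1 replicate out turned the sign, with a call on at least 1 side, for 10 non-members among the genes named here: values in 1 replicate ran from -0.18 to 1.17 for Exoc2, from -0.17 to 0.69 for Serpinb2, from -1.08 to 0.21 for Elane, from -0.33 to 0.77 for Ctsb, from -0.29 to 0.99 for Bphl, from -0.22 to 1.13 for Eci3, from -0.23 to 0.71 for Fars2, from -0.13 to 0.74 for Foxf2, from -0.57 to 2.20 for Vim and from -0.39 to 0.53 for Tpsb2. Tpsb2, at 0.07 and not called in all lines, was at -0.25 and lower in matched lines. The count of genes differing between lines, 1466, was 767 with no replicate block and 3573 in matched lines.

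For covariation with Serpinb9d, 8 genes became 19 with line means (1 negative), 20 with 5 components removed (6 negative) and 27 with the replicate block (3 negative). They became 5 in matched lines, and 1 with ranks or without the 2 farthest lines. The members called, 5, became 2 in matched lines and 1 in the last 2 settings. Within the lines at or below 1, and within those above 1, both counts were 0, settings chosen after seeing the data that hold fewer lines and a shorter range. There the slopes at or below 1 were -0.11 for Serpinb9, -0.054 for Serpinb9e, -0.034 for Serpinb6b and -0.034 for Pxdc1, and -0.012 for Serpinb9 above 1. With the replicate block 6 members were called, Serpinb6a in addition. With exact zeros as missing Serpinb6a was called at 0.34 and Serpinb9b was not, at 0.66.

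Brain's 2635 calls became 5216 with the replicate block, and liver's 761 became 4218. Brain minus liver had 1002, which became 496 with scaled arrays. Leaving out any array of the organs compared leaves a single array for that organ, so those fits cannot decide whether the calls hold. Over all single-gene values, 1975 kept their direction and side of the threshold, 129 lost a call, 68 gained one and 16 reversed. For changed values given here with no reason, the cause was not tested. The ratios hold no intensities, so signal over background is unknown. The added settings without line 23 and with single lines left out were also chosen after seeing the data.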
